A study of Mus musculus with 24 samples.

Results

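The AMPA and NMDA receptors carry most of the fast excitatory current between cortical neurons, and 10 of the 15232 genes in the deposited table encode their pore-forming subunits. These are Gria1, Gria2, Gria3 and Gria4 for the AMPA receptor, and Grin1, Grin2a, Grin2b, Grin2c, Grin2d and Grin3a for the NMDA receptor. They were taken by name and not by any measured value. All 10 had a mean of at least 1 FPKM (fragments per kilobase of gene length, scaled for library depth) over the 24 libraries, so all 10 entered the comparisons below. Grin2d alone dropped out of an alternative that required a mean of at least 5 FPKM. Grin3b was not analysed here.

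AMPA receptors are tetramers that open within moments of glutamate binding. Their GluA2 subunit, the product of Gria2, is edited at the RNA level and keeps calcium out of the channel. NMDA receptors need glutamate together with glycine or D-serine, and they pass calcium when the membrane is depolarised. Each NMDA receptor contains GluN1, from Grin1, with GluN2 or GluN3 partners that set its kinetics, and cortical synapses come to rely more on GluN2A than on GluN2B as they mature. Thrombospondins are matrix proteins secreted by astrocytes that promote the formation of excitatory synapses.

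The RNA was poly(A) RNA of the whole anterior cingulate cortex (ACC), a medial frontal area, from mice labelled wild type or Thbs1/2 KO. There were 3 arms of 8 libraries, each with 4 females and 4 males: labelled wild type and untrained, labelled KO and untrained, and labelled KO and trained in a Skinner box, an operant chamber. A trained wild-type arm was not analysed here. Trained mice were also food deprived, so training and food deprivation cannot be told apart. Strain, age and the design of the deletions were not given in the sources used here. Every library carries an animal number of its own.

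Thbs1 and Thbs2, the genes targeted, did not follow the labels. Thbs1 lay between 0.254 and 0.716 FPKM in the libraries labelled WT, between 2.77 and 5.04 in the untrained libraries labelled KO and between 3.62 and 5.91 in the trained ones, and Thbs2 was also higher in the libraries labelled KO. Every direction below is therefore between libraries by their labels. Recovered depth was 12821097 to 19878771 reads per library labelled WT, 12269648 to 27098317 per untrained library labelled KO and 16693835 to 20294168 per trained library. Animal numbers over 1000 were carried by every trained animal and by 3 untrained males, 2 labelled KO and 1 labelled WT.

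A pair of libraries stood apart in markers of other brain regions. In male 3 of the untrained arm labelled KO (animal 480), all 9 striatal and all 5 septal marker genes lay above the 22 libraries other than this pair, while all 6 excitatory neuron markers, 7 of 8 cortical and 6 of 7 oligodendrocyte markers lay below them. Its septal markers summed to 99.4 FPKM, against 7.40 to 13.1 in the other 23 libraries, and its excitatory neuron markers to 288, against 699 to 909. Its striatal markers summed to 790 FPKM, but those of the other 23 libraries also varied, from 98.4 to 410 with a median of 130. Sums of 290 to 410 were held by WT females 3 and 4, WT male 3, untrained male 1 labelled KO and trained male 1. In female 2 of the trained arm labelled KO, all 8 genes of a hippocampal list, chosen after its values were seen, lay above the 22, and their sum was 57.4 FPKM. Untrained male 3 had the next highest sum of that list, 16.8 FPKM with 3 of 8 genes above the 22, which ran from 6.02 to 10.6. No gene of these lists was at 0 in every library. In bulk tissue, fewer cells of a type and less RNA per cell cannot be told apart.

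All 10 subunits share a run of 7 codons' worth of protein sequence, found by comparing the translated coding sequences of the longest GENCODE M21 coding transcripts. It was the longest run common to all 10, and it lies in the helix that lines the gate of the channel. It is shown because all 10 carry it, although their transcripts differ widely in length and base composition. Whether other genes carry it was not tested. The coding strand is printed 5′ to 3′ for 4 subunits, 2 of each receptor, with the 21 shared coding bases in capitals and 15 bases on each side in lower case. Each stretch lies within a single coding exon (GRCm38).
Gria1: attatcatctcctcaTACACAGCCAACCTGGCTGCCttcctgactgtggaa
Gria3: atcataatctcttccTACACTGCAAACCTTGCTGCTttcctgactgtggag
Grin1: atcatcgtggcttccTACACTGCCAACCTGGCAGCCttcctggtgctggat
Grin3a: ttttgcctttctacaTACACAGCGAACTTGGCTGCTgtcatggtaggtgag

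The Gria1 stretch is at chr11:57283559-57283609 on the plus strand, and the Gria3 stretch at chrX:41620846-41620896 on the plus strand. The others are on the minus strand, at chr2:25297187-25297237 for Grin1 and chr4:49770458-49770508 for Grin3a. Over the whole coding sequence, base composition spread much further. The GC content was 44.7% in Gria2, 45.4% in Gria4, 50.8% in Grin2a, 62.4% in Grin2c and 67.3% in Grin2d.

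Levels per gene length placed Grin1 highest, followed by 3 AMPA subunits. Mean FPKM over the 24 libraries was 129 for Grin1, 90.7 for Gria2, 74.0 for Gria1 and 67.0 for Gria3, and then 23.1 for Gria4 and 18.6 for Grin2b. Grin2a followed at 10.7, Grin3a at 7.29, Grin2c at 6.61 and Grin2d at 1.89 FPKM. Grin1 exceeded the mean of 97.3% of the genes in the table and Grin2d that of 24.5%. The order depends on the gene lengths that FPKM divides by, and it was not equally clear at each step. Grin1 was above Gria2, Gria3 above Gria4, Grin2b above Grin2a and Grin2c above Grin2d in all 24 libraries. Gria1 was above Gria3 in 15 of 24 libraries and Grin3a above Grin2c in 18 of 24, and the ranges of these neighbours overlapped. Recovered reads per library ran from 79 to 490 for Grin2d, so counting error is larger for it than for Grin1, at 6563 to 14256 reads.

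The AMPA subunits together summed to 264 ± 11.1 FPKM (SD, n = 8) in the libraries labelled WT, 250 ± 32.8 (SD, n = 8) in untrained ones labelled KO and 250 ± 28.3 (SD, n = 8) in the trained ones. Gria2 made up 36.5%, 34.8% and 35.3% of that sum in the same order, with SDs of 1.69 to 2.40 percentage points. Gria4, which is carried by subsets of interneurons among other cells, made up 9.04%, 9.33% and 9.07%. Among the GluN2 subunits, Grin2b held 52.1% ± 4.76 (SD, n = 8), 47.6% ± 5.07 (SD, n = 8) and 46.0% ± 5.46 (SD, n = 8) of the summed FPKM. The ratio of Grin2a to Grin2b was 0.527 ± 0.105, 0.633 ± 0.188 and 0.610 ± 0.0615 (SD, n = 8 each). The size of the shares and of the ratio depends on the gene lengths that FPKM divides by. For Grin2a and Grin2b these lengths were 30.8% and 31.2% of the longest annotated transcript, against 74.7% to 113% for the other subunits. With all 24 libraries, these shares and the ratio differed between arms by about their spread or less. Without untrained male 3, its arm had means of 240 FPKM for the AMPA sum, 46.3% for Grin2b and 0.683 for the ratio. Each of these lay further from the mean of the libraries labelled WT than the SD of those libraries. The Gria2 and Gria4 shares were then 35.0% and 9.94%.

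**Figure D1:**
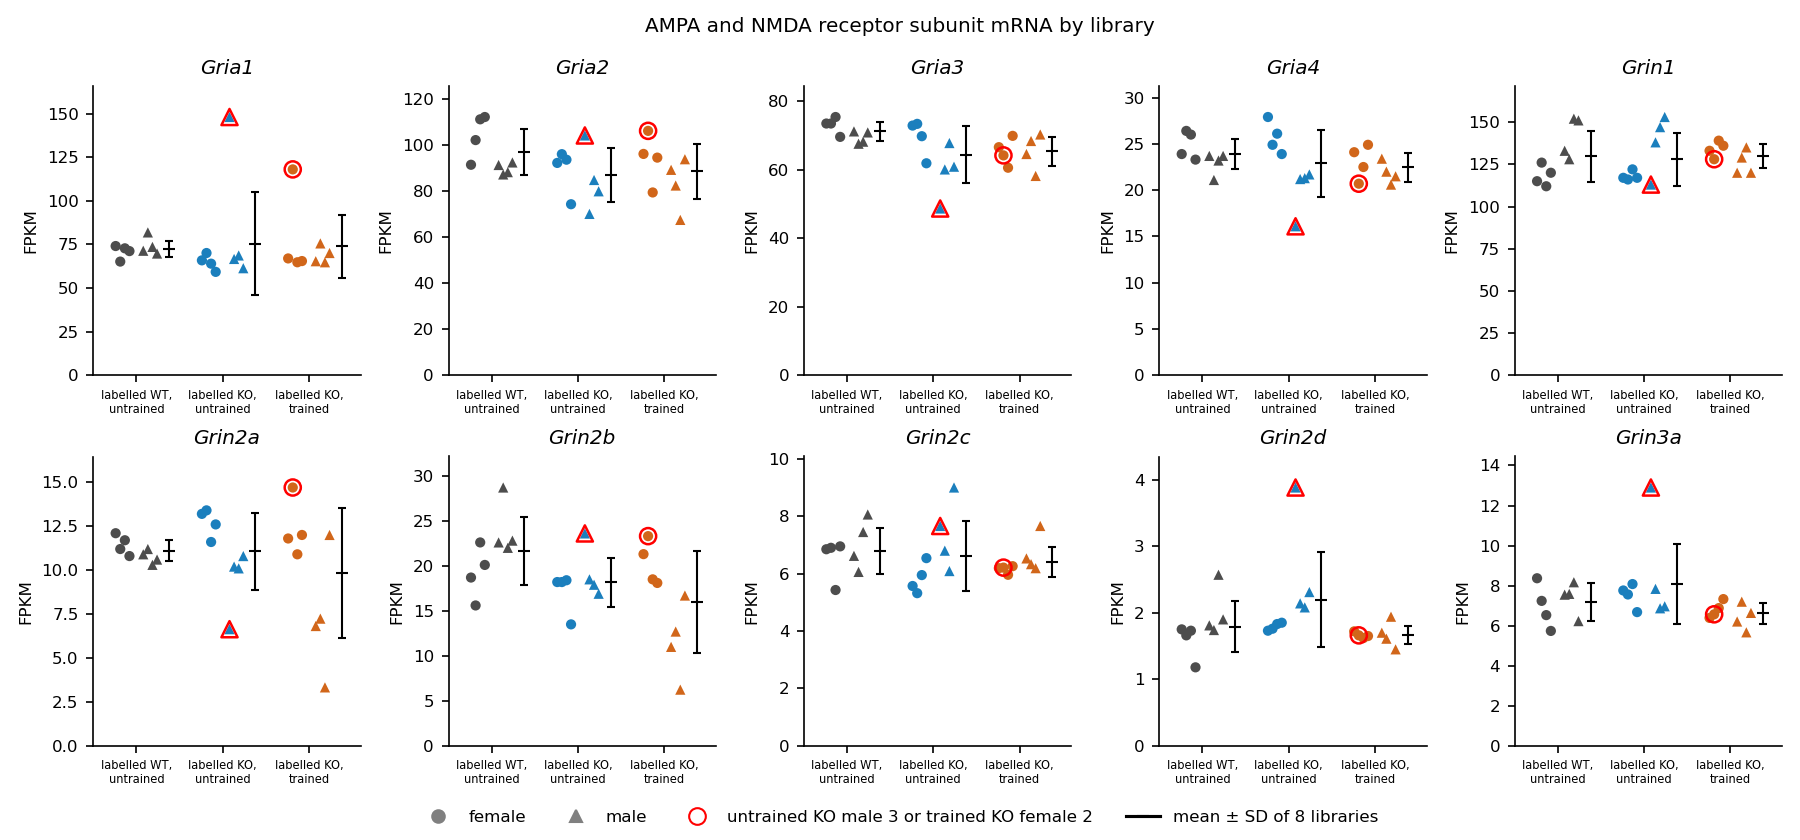
FPKM of each subunit (vertical axes, linear, from 0) in the 24 libraries by arm, with circles for females, triangles for males and black bars for the mean ± SD of 8 libraries. Red outlines mark untrained male 3 and trained female 2 of the arms labelled KO, which hold the 2 highest Gria1 values, 148 and 118 FPKM.

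Gria1, which encodes the GluA1 subunit inserted at synapses during potentiation, had its highest values in the pair of libraries described above. Its lowest, median and highest FPKM were 65.2, 72.1 and 81.9 in the libraries labelled WT, 59.3, 66.3 and 148 in the untrained libraries labelled KO, and 64.8, 66.3 and 118 in the trained ones. Untrained male 3 held the 148 FPKM and trained female 2 the 118 FPKM, while the other libraries of their arms reached 70.1 and 75.6. The 2 libraries were thus 2.25 and 1.80 times the median of the rest of their arms. In untrained male 3 the septal and striatal markers and, less so, the hippocampal sum were also high, with the excitatory neuron, cortical and oligodendrocyte sums low, and in trained female 2 the hippocampal markers were high. Their part in the Gria1 values was not tested.

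**Figure D2:**
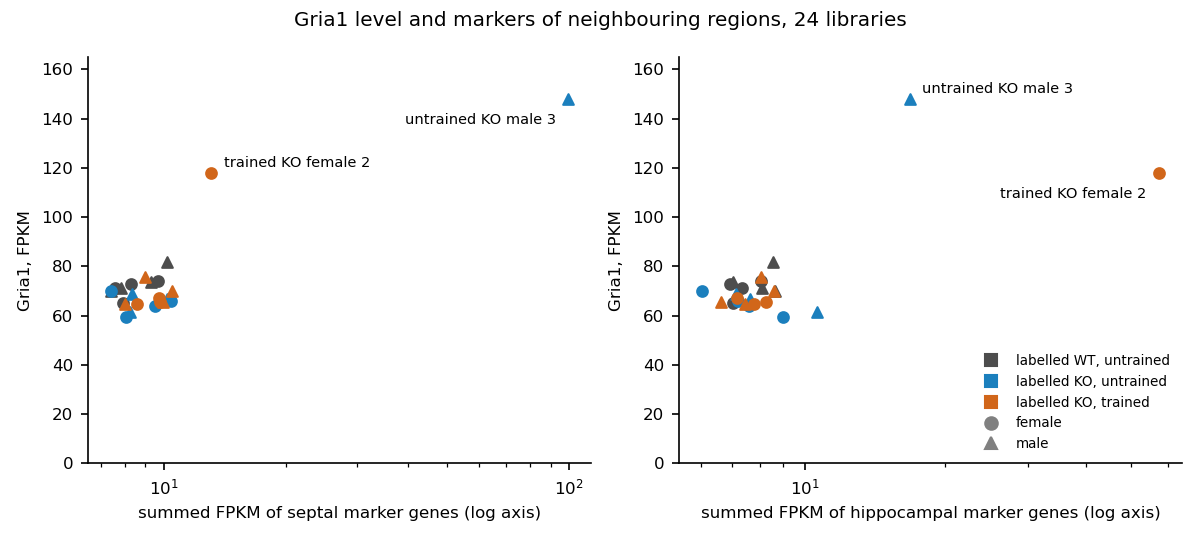
Gria1 FPKM (vertical axis) against the summed FPKM of septal (left) and hippocampal (right) marker genes (horizontal log axes), 1 point per library, coloured by arm. The library at 99.4 on the septal axis is untrained male 3 and the one at 57.4 on the hippocampal axis is trained female 2, and all other libraries lie between 59.3 and 81.9 FPKM of Gria1.

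Untrained male 3 also departed from its arm in other subunits, in both directions. Grin3a, whose GluN3A product lowers calcium entry through NMDA receptors, was at 12.9 FPKM against 6.68 to 8.08 in the other 7 libraries, and Grin2d was at 3.88 against 1.73 to 2.31. Gria3 was at 48.7 FPKM against 60.1 to 73.4, Gria4 at 16.1 against 21.2 to 27.9, and Grin2a at 6.64 FPKM, the lowest of its arm. Gria2 at 104 FPKM and Grin2b at 23.6 FPKM were the highest of its arm, and Grin1 at 113 FPKM was the lowest, while Grin2c at 7.66 FPKM lay within the range of the rest. Results that rest on this library are given with and without it.

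The comparison of the untrained arms asked whether the libraries labelled KO differ from those labelled WT in these subunits. None of the 10 passed (limma, adjusted over 12572 genes), against 1.42% of all genes tested. An unadjusted p under 0.05 was held by 3 of the 10, and by 1600 of the 12572 genes. The 3 subunits were Gria2, Gria3 and Grin2b, all with lower means in the libraries labelled KO. Of the 10 differences, 2 were positive, with a median of -0.033 on the log2(FPKM + 1) scale beside -0.001 over all genes tested.

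Gria2 was at 87.1, 91.8 and 112 FPKM (lowest, median, highest) in the libraries labelled WT and at 70.0, 88.4 and 104 in the untrained libraries labelled KO. The ranges overlapped, and the difference was -0.16 (SE 0.0739, limma adjusted p = 0.368). Grin2b, for the GluN2B subunit, was at 15.6, 22.3 and 28.7 FPKM against 13.5, 18.2 and 23.6, a difference of -0.24 (SE 0.0892, limma adjusted p = 0.258). Gria3, on the X chromosome, was at 67.6, 71.0 and 75.4 FPKM against 48.7, 64.9 and 73.4, a difference of -0.15 (SE 0.0579, limma adjusted p = 0.262). For all 3 the arms overlapped, with the untrained libraries labelled KO reaching further down.

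With untrained male 3 left out, still none of the 10 passed, against 2.70% of all genes. The difference of Gria1 moved from -0.00 (SE 0.134) to -0.15 (SE 0.0444, limma adjusted p = 0.0831). Gria2 stood at -0.21 (SE 0.0581, limma adjusted p = 0.0571) and Grin2b at -0.28 (SE 0.0837, limma adjusted p = 0.0875). Among males, all 3 remaining untrained libraries labelled KO lay below all 4 labelled WT in Gria1, Gria2 and Grin2b, and 8.33% of all genes were so separated in 1 direction or the other. A correction for GC content and transcript length, combined with leaving out this library after seeing the data, put 3 subunits past the threshold, against 3.20% of all genes. These were Gria1 at -0.16 (SE 0.0419, limma adjusted p = 0.0443), Gria2 at -0.18 (SE 0.0363, limma adjusted p = 0.0125) and Grin2b at -0.28 (SE 0.0725, limma adjusted p = 0.0428). With all 16 libraries the same correction left none past it, against 1.57% of all genes.

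**Figure D3:**
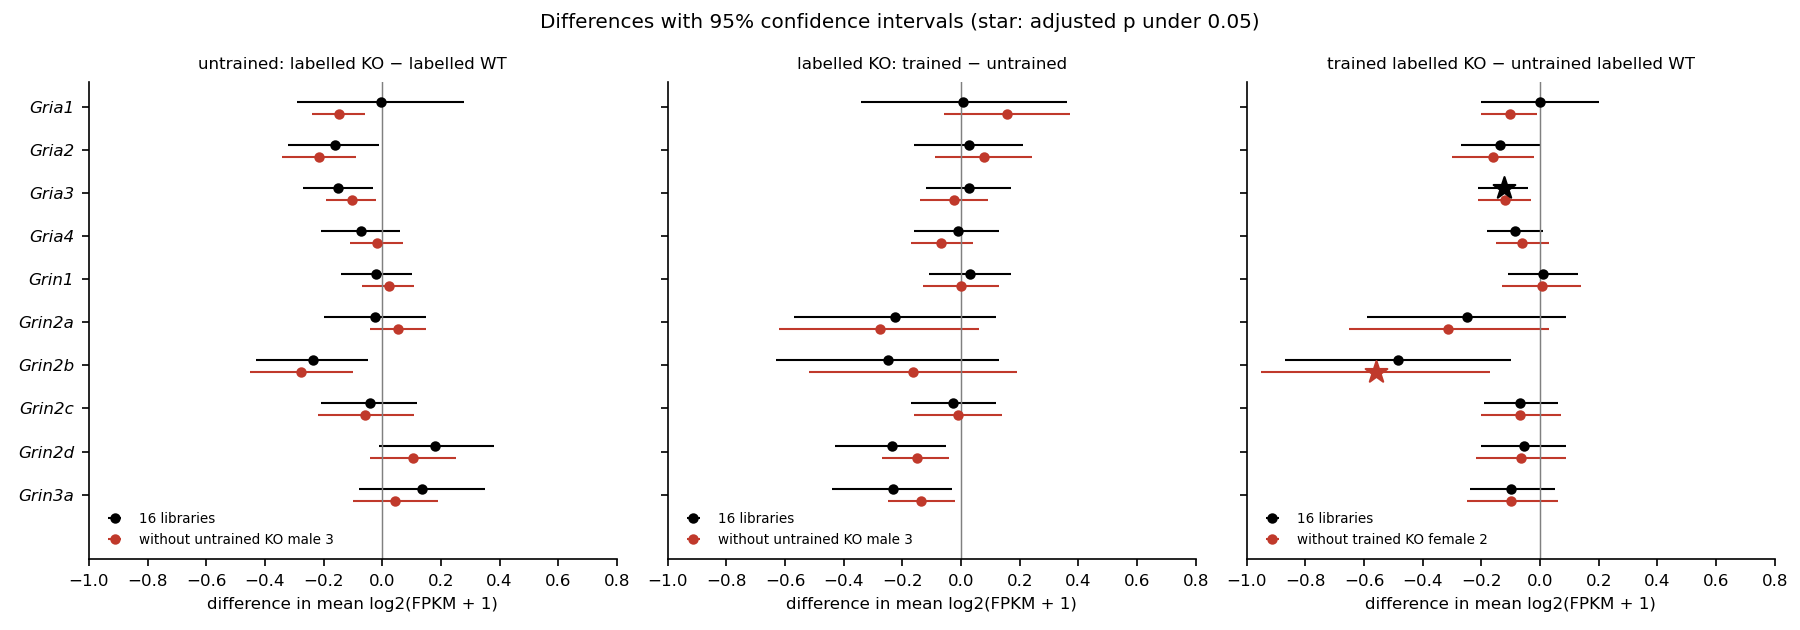
Differences in mean log2(FPKM + 1) (horizontal axes) with 95% confidence intervals for the 10 subunits in the 3 comparisons of arms, with 16 libraries (black) and without 1 library (red). Stars mark an adjusted p under 0.05, which only Gria3 at -0.12 (16 libraries) and Grin2b at -0.56 (without trained female 2) reached, both in the right panel.

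Training was compared within the libraries labelled KO. None of the 10 subunits passed (limma), against 5.67% of all genes tested. An unadjusted p under 0.05 was held by 2 of the 10, and by 2989 of the 12572 genes, so these 2 do not exceed the background. Grin3a was at 6.68, 7.66 and 12.9 FPKM untrained and at 5.67, 6.60 and 7.33 trained, a difference of -0.23 (SE 0.0981, limma adjusted p = 0.157). Grin2d, for the slow GluN2D subunit of interneurons, was at 1.73, 1.96 and 3.88 FPKM untrained and 1.45, 1.66 and 1.94 trained, a difference of -0.24 (SE 0.0899, limma adjusted p = 0.122). Both ranges overlapped, and both highest untrained values belonged to male 3. Without it the differences were -0.14 (SE 0.0549, limma adjusted p = 0.128) and -0.15 (SE 0.0548, limma adjusted p = 0.0969), and again none of the 10 passed, against 6.78% of all genes. With the correction for GC content and length as well, 1 of the 10 passed, against 10.2% of all genes: Gria2, higher by 0.18 in the trained libraries (SE 0.0413, limma adjusted p = 0.0127).

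Within each sex Grin2d was lower in all 4 trained libraries than in all 4 untrained ones. Such a separation in either direction held for 22.0% of all genes in females and 7.85% in males. Among females it also held for Grin1, at 128 to 139 FPKM trained and 116 to 122 untrained. Among males it also held for Grin2b, lower in all 4 trained libraries, at 6.25 to 16.7 FPKM against 16.9 to 23.6. In males without untrained male 3, Grin1 was lower in all 4 trained libraries, at 120 to 135 FPKM against 138 to 153 and thus in the opposite direction to the females. In those males 12.5% of all genes were separated in either direction. In females, training and animal number over 1000 cannot be told apart. With animal number as a covariate 0 of the 12572 genes tested were called for training, and 1306 had an unadjusted p under 0.05. In the 6 males with numbers over 1000 no gene was called either, with 1320 at an unadjusted p under 0.05.

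Grin2a and Grin2b were low in 3 trained males. Grin2a, for the GluN2A subunit of mature synapses, was at 6.82, 7.24 and 3.33 FPKM in trained males 1, 2 and 3 and at 10.9 to 14.7 in the other 5 trained libraries. Grin2b was at 11.0, 12.7 and 6.25 FPKM in those males, below all 21 other libraries, which ran from 13.5 to 28.7. Over the whole trained arm the differences from the untrained libraries labelled KO were -0.23 (SE 0.163, limma adjusted p = 0.419) for Grin2a and -0.25 (SE 0.180, limma adjusted p = 0.421) for Grin2b. The 3 males were then left out, a choice made after seeing these values. Without them the differences were 0.06 (SE 0.114) and 0.12 (SE 0.112), with limma adjusted p of 0.792 and 0.583. Because the 3 were picked for low values, the loss of the lower trained mean was built in. Trained male 4 was then the only trained male.

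The same 3 males had the lowest levels of long transcripts in general. An index was taken as the median deviation of log2(FPKM + 1) over 603 tested genes whose longest transcript has at least 8551 bases, the receptor subunits left out. It was -0.10, -0.14 and -0.33 in trained males 1, 2 and 3 and lay between -0.09 and 0.14 in the other 21 libraries. Grin2a and Grin2b have the longest annotated transcripts of the 10, at 14634 and 24060 bases. The gene lengths that the authors' FPKM values imply were 4512 and 7505 bases, 30.8% and 31.2% of these, against 74.7% to 113% for the other 8 subunits. Grin1, with 4276 bases, was at 120, 129 and 135 FPKM in the 3 males, within the range of the others. The order of lengths was not followed throughout. Gria2, with 10371 bases, was within the range of the other trained libraries in males 1 and 2, at 89.1 and 82.3 FPKM. In male 3 it was the lowest of 24 libraries, at 67.4 FPKM, as was Grin3a, with 7491 bases, at 5.67 FPKM. Gria3 and Gria4, with 5206 and 5441 bases, were lower in male 3 than in every library except untrained male 3, at 58.2 and 20.6 FPKM. The part of transcript length in the Grin2a and Grin2b values was not tested.

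**Figure D4:**
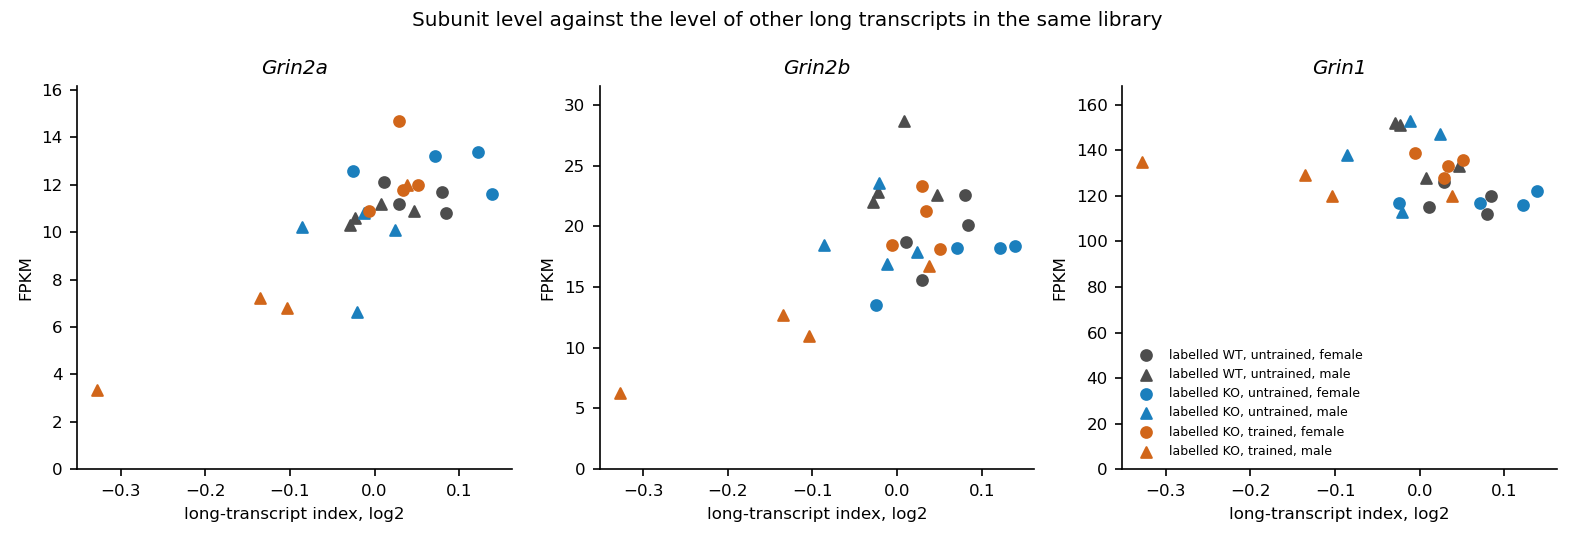
FPKM of Grin2a, Grin2b and Grin1 (vertical axes, from 0) against the long-transcript index of the same library (horizontal axes, log2), 1 point per library, coloured by arm and shaped by sex. The 3 trained males at -0.10, -0.14 and -0.33 have Grin2b at 11.0, 12.7 and 6.25 FPKM, the lowest of 24, while their Grin1 values lie among the rest.

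The trained libraries labelled KO were also compared with the untrained libraries labelled WT, which differ in genotype label and training together. Gria3 was the only subunit past the threshold, against 24.5% of all genes tested, and the share of 1 in 10 does not exceed this background. Its FPKM was 67.6, 71.0 and 75.4 in the libraries labelled WT and 58.2, 65.6 and 70.3 in the trained ones. The arms overlapped, and Gria3 fell by 0.12 in log2(FPKM + 1), with an SE of 0.0417 and a limma adjusted p of 0.0364. With WT female 1, 2 or 3, WT male 1 or 2, trained female 1, 2 or 3, or trained male 1 or 3 left out, its limma adjusted p was 0.0517 to 0.0760. After correction for GC content and length it stood at -0.06 (limma adjusted p = 0.165), against 27.7% of all genes called. With animal number over 1000 as a covariate it stood at -0.14 (SE 0.0935, limma adjusted p = 0.666), none of the 10 passed, and 0.175% of all genes were called. This comparison and the previous pair share libraries, so their values are not independent.

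Grin2b missed the threshold in this comparison with a larger difference. It was at 15.6, 22.3 and 28.7 FPKM in the libraries labelled WT and at 6.25, 17.4 and 23.3 in the trained ones, and the difference was -0.49 (SE 0.183, limma adjusted p = 0.0608). Without trained female 2, whose Grin2b was the highest of its arm, it was -0.56 (SE 0.184, limma adjusted p = 0.0380), against 21.3% of all genes called. Over the 16 omissions of a single library it ran from -0.57 to -0.33, with limma adjusted p from 0.0318 to 0.126. Trained female 2 was thus not the only library whose omission put it past the threshold. Without trained males 1, 2 and 3, left out after their low Grin2b was seen, it was -0.09 (SE 0.112, limma adjusted p = 0.595). An omission chosen by these values makes the difference smaller by construction. Among males, all 4 trained libraries lay below all 4 labelled WT, a separation that 11.7% of all genes showed in either direction. Among females, Grin1 was at 128 to 139 FPKM in the trained libraries and 112 to 126 in those labelled WT, and 27.2% of all genes were separated in either direction.

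For genotype label by sex, none of the 10 subunits and 0% of all genes tested passed (limma), and 394 genes had an unadjusted p under 0.05. For training by sex, 0.00795% of all genes tested were called and none of the 10. Grin2b had the largest interaction, -0.98 (SE 0.282, limma adjusted p = 0.125), with means of 17.1 and 20.3 FPKM in untrained and trained females and 19.2 and 11.7 in males. Trained males 1, 2 and 3, those with the lowest long-transcript index, were at 11.0, 12.7 and 6.25 FPKM. Trained male 4 was at 16.7 FPKM, beside 16.9 to 23.6 in the untrained males labelled KO. Grin1 means were 118 and 134 FPKM in untrained and trained females and 138 and 126 in males, an interaction of -0.30 (SE 0.108, limma adjusted p = 0.213). When untrained male 3 was left out, the Grin1 interaction was -0.39 (SE 0.0754, limma adjusted p = 0.0321), against 1.54% of all genes called. Adding the correction for GC content and length to that gave -0.25 (SE 0.0581, limma adjusted p = 0.0934), against 0.207% of all genes.

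Between the sexes, 4 of the 10 subunits passed with arm as a covariate, against 28.6% of all genes tested. Grin2a was at 10.8, 11.9 and 14.7 FPKM (lowest, median, highest of 12) in females and at 3.33, 10.2 and 12.0 in males, a change of -0.43 on the log2(FPKM + 1) scale (SE 0.122, limma adjusted p = 0.0121). Its lowest male values were those of trained males 1, 2 and 3 and untrained male 3, at 6.82, 7.24, 3.33 and 6.64 FPKM. Libraries labelled WT held 10.8 to 12.1 FPKM in females and 10.3 to 11.2 in males. Untrained ones labelled KO held 11.6 to 13.4 in females and 10.1 to 10.8 in males other than male 3. No fit between the sexes left out the 3 trained males. Gria4 was at 20.7, 24.5 and 27.9 FPKM in females and 16.1, 21.6 and 23.7 in males, a change of -0.18 (SE 0.0507, limma adjusted p = 0.0112). The astrocyte-expressed Grin2c was at 5.32, 6.20 and 6.95 FPKM in females and 6.06, 6.71 and 9.00 in males, a change of 0.16 (SE 0.0572, limma adjusted p = 0.0390). Grin2d was at 1.18, 1.72 and 1.85 FPKM in females and 1.45, 1.92 and 3.88 in males, a change of 0.19 (SE 0.0705, limma adjusted p = 0.0491). The ranges of the sexes overlapped for all 4.

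The direction of the sex difference followed base composition across the subunits. The 5 with the lowest GC in their longest transcript, Gria2 at 36.8%, Gria3 at 39.8%, Gria4 at 44.3%, Grin2a at 44.8% and Grin2b at 45.7%, had lower means in males on this scale. The 5 with the highest, Gria1 at 48.5%, Grin3a at 49.2%, Grin1 at 59.4%, Grin2c at 62.1% and Grin2d at 65.0%, had higher means in males. The direction was not the same under every setting. In the fit lacking untrained male 3, Gria1 stood at -0.02 and Grin3a at -0.01, and after correction for GC content and length Gria2 stood at 0.08, Gria3 at 0.06 and Grin2b at 0.01. After that correction none of the 10 passed, against 5.89% of all genes. Grin2a then stood at -0.28 (SE 0.104, limma adjusted p = 0.109). With all libraries scaled to an equal FPKM sum, the 4 subunits past the threshold were Gria2, Gria3, Gria4 and Grin2a, all lower in males, against 28.4% of all genes. In the 23 libraries other than untrained male 3 they were Grin1, higher in males, and Gria2, Gria4 and Grin2a, lower in males, against 33.0% of all genes. With the correction and without that library, Gria3 alone passed, higher in males at 0.09 (SE 0.0271, limma adjusted p = 0.0359), against 7.41% of all genes.

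**Figure D5:**
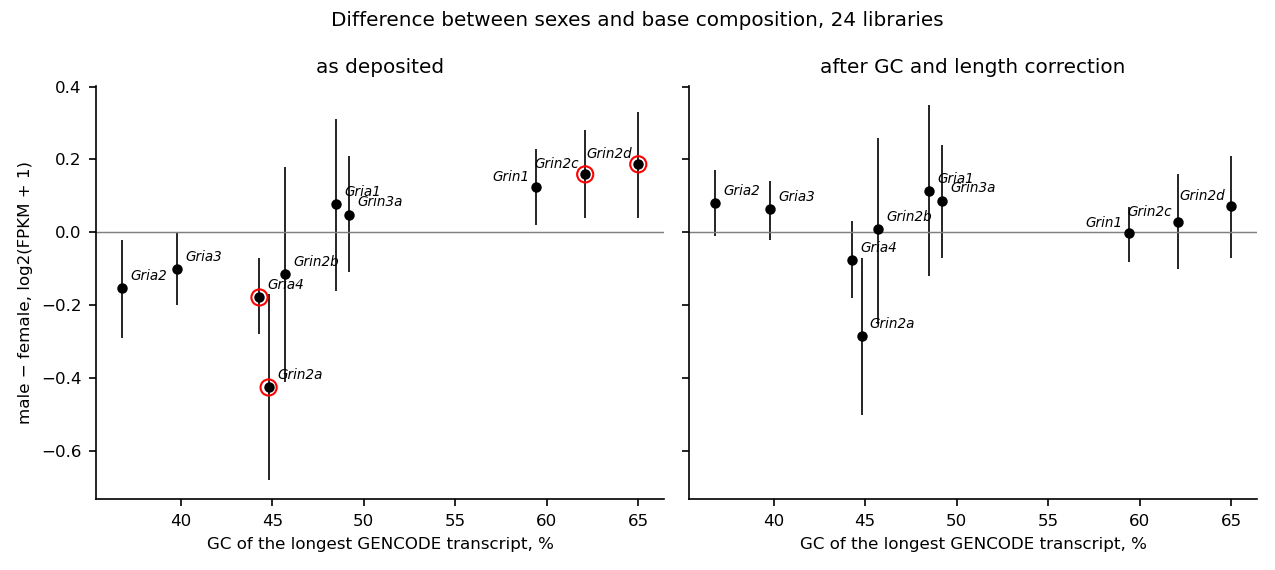
Male minus female difference in log2(FPKM + 1) with 95% confidence intervals (vertical axes) against the GC content of the longest GENCODE transcript (horizontal axes, %) for the 10 subunits, as deposited (left) and after correction for GC content and length (right). Red circles mark an adjusted p under 0.05, held by Gria4, Grin2a, Grin2c and Grin2d on the left and by none on the right.

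Other genes of glutamate receptor function were taken from 4 lists: kainate and delta receptor subunits, AMPA auxiliary and trafficking proteins, anchoring and signalling proteins of the postsynaptic side, and co-agonist supply with RNA editing. Of their genes, 56 were tested. Between the untrained arms 0 of 7, 0 of 21, 0 of 21 and 0 of 7 passed in that order, beside 1.42% of all genes. Without untrained male 3, Shisa7, an auxiliary subunit, fell by 0.20 (SE 0.0492, limma adjusted p = 0.0334) and Adar, an RNA editing enzyme, fell by 0.15 (SE 0.0385, limma adjusted p = 0.0442). These 2 of 56 are close to the background of 2.70% in that setting.

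With training, 2 of 21 auxiliary and trafficking genes rose, and 1 of 7 kainate and delta subunits fell. These 3 of 56 are close to the background of 5.67%, so the count is no result about the lists. Nptx2, an activity-regulated pentraxin that clusters AMPA receptors, was at 9.75, 17.7 and 23.5 FPKM in the untrained libraries labelled KO and at 22.9, 28.9 and 33.6 in the trained ones. It rose by 0.66 (SE 0.134, limma adjusted p = 0.0104), and the arms overlapped only between the lowest trained and the highest untrained libraries. Without untrained male 3, which held the lowest value, Nptx2 rose by 0.54 (SE 0.0783, limma adjusted p = 0.00105). Abhd6, a lipase that binds AMPA subunits, was at 25.5, 27.0 and 31.3 FPKM untrained and 32.0, 33.8 and 36.3 trained. These ranges did not overlap, which held for 0.963% of all genes, and Abhd6 rose by 0.27 (SE 0.0509, limma adjusted p = 0.00627). Grid1, a delta receptor subunit, was at 19.6, 22.7 and 28.4 FPKM untrained and 17.5, 19.9 and 20.7 trained, and fell by 0.22 (SE 0.0601, limma adjusted p = 0.0444). With animal number over 1000 as a covariate, Nptx2 stood at 0.53 (limma adjusted p = 0.443), Abhd6 at 0.24 (limma adjusted p = 0.370) and Grid1 at -0.18 (limma adjusted p = 0.564).

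Between the trained libraries labelled KO and the untrained libraries labelled WT, 14 of the 56 genes passed, 3 higher and 11 lower, beside the background of 24.5%. With animal number over 1000 as a covariate 0 of the 56 passed, and 22 of 12572 genes did, with Nptx2 at 0.53 (limma adjusted p = 0.159) and Abhd6 at 0.18 (limma adjusted p = 0.756). Of the kainate and delta subunits, 5 of 7 fell, among them Grik1 by 0.17, Grik2 by 0.20, Grik5 by 0.20 and Grid1 by 0.17, with a list median of -0.17 beside 0.003 over all genes. Nptx2 rose by 0.56 (SE 0.0611, limma adjusted p = 1.02e-05), Abhd6 rose by 0.33 and Snx27, a sorting protein for recycled receptors, rose by 0.15. Frrs1l, needed for AMPA receptor assembly, fell by 0.22. The scaffold Grip1 fell by 0.15, the anchoring protein Akap5 by 0.23 and the kinase subunit Camk2d by 0.16. Srr, the enzyme that makes D-serine, and Slc1a4, a serine transporter, each fell by 0.17.

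Between the sexes 17 of the 56 passed, again beside a background of 28.6%. The auxiliary subunit Cnih2 was higher in males by 0.37 (SE 0.0948, limma adjusted p = 0.00568) and the scaffold Dlg4 by 0.16, while Dlg1 and Dlg2 fell by 0.18 and 0.11 in males. Pick1, which internalises AMPA receptors, was higher in males by 0.21. After correction for GC content and length 3 of the 56 passed, against 5.89% of all genes. These were Dlg4 at 0.25, Pick1 at 0.14 and Neto1, an auxiliary protein, at 0.14, while Cnih2 at 0.18 (limma adjusted p = 0.294), Dlg1 at -0.04 (0.715) and Dlg2 at 0.00 (0.983) did not pass.

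Variation among libraries of one arm and sex was compared between the subunits. Over 23 libraries, untrained male 3 left out and arm-and-sex means removed, 7 of 45 pairs had a Pearson r of at least 0.5 and 2 of -0.5 or below. These counts are a description only, since all points share their library's depth and base composition. The share over all gene pairs was not computed, so the counts are no result about the subunits. Grin2a and Grin2b had the highest r, 0.83, and Grin1 and Grin2b the lowest, -0.60. Trained male 3 was the lowest library in both Grin2a and Grin2b, and the r of this pair without it was not computed. The gene most like Grin2a was Tnr (r = 0.95), and those most like Grin2b were Slc8a1 (0.95) and Tmem245 (0.91). The longest transcripts of these 3 genes have 12202, 18464 and 15981 bases. Without trained male 3 the r values were 0.84, 0.89 and 0.80.

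Gria1 was most like Gabra5, a GABA receptor subunit abundant in hippocampus (r = 0.95), and 2010300C02Rik (0.92), and without trained female 2 these r values were 0.73 and 0.56. Gria2 went with Scai (0.94) and Fam208a (0.92), Gria3 with Adam22 (0.89) and Man1a2 (0.87), and Gria4 with Magi1 (0.81) and Atrnl1 (0.79). Grin1 was most like Speg (0.91) and Atg9a (0.90). Grin2c was most like Htra1 and Cbx7 (0.85 each), Grin2d like Fam214b (0.81) and Sh2d3c (0.77), and Grin3a like Hdac9 (0.82) and Grm8 (0.78).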

How the data were processed

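The authors deposited FPKM values for all 24 libraries in one table. Its column headers call them counts, but its title names FPKM and the values are not whole. Per the submitters' processing notes, which give no order or role, FastQC 0.11.7, Trimmomatic 0.38, STAR 2.5.3a, featureCounts and Subread 1.6.3 were used with build mm10. Members and gene lists were chosen with earlier results of these data known. Reads were recovered as whole multiples of the smallest FPKM step per gene and library, for 15228 of 15232 genes, with 99.98% of values whole within 0.01 read. They cover counting error only.

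For each comparison log2(FPKM + 1) was fitted in limma 3.58.1 (R 4.3.3; lmFit, eBayes with trend) over the 12572 genes whose FPKM averaged 1 or more, with sex, or arm, as covariate and Benjamini-Hochberg adjustment at 0.05. Fold changes on this scale understate the change of low genes. On simulated data with 12572 genes in the genotype comparison, 197 of 200 genes changed 2-fold were called, with 10 other calls. The simulated noise was independent between genes and held no outlying library. Smaller changes, such as those of the subunits, were not simulated, so these counts do not tell how often such changes would be missed. GC content and length came from GENCODE M21 for 96.4% of tested genes. The rule for naming took in all 10 subunits in every comparison, list genes where they passed, and for each subunit the 2 genes with the highest r. Some genes and sequences that this rule takes in are not reported here. Alternatives were a pseudocount of 0.1, other filters, scalings and variance models, limma-voom on recovered reads, a replicate block, animal number as covariate, and each library left out. Python 3.11.15, numpy 2.4.6, pandas 2.3.3, Biopython 1.88 and matplotlib 3.10.9 were used.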

Additional observations from a re-analysis of the deposited data

Results flagged for a closer look

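In each arm of 8 libraries, the gap between the most extreme value and its nearest neighbour was compared with the range of the arm (Dixon's criterion, 0.526 for 8 samples). Of 30 groups tested, 5 exceeded it, where chance gives about 1.5. In untrained male 3 of the arm labelled KO these were Gria1 at 148 FPKM, Grin2d at 3.88 FPKM and Grin3a at 12.9 FPKM, each the highest of the arm. In trained female 2 of the arm labelled KO it was Gria1 at 118 FPKM, and in trained male 4 it was Grin2c at 7.66 FPKM. No cause of these values was tested.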

How the results depend on the processing

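Grin2d was not tested with a mean FPKM of at least 5 required. Of 1107 log2 changes of a subunit under an alternative, 1001 kept their direction and side of the threshold, 63 changed sign, 28 lost and 15 gained a call. The causes were not tested. With the correction for GC content and length and without untrained male 3, both chosen together after seeing the data, 3 subunits were called for genotype label, 1 (Gria2) for training and 1 (Gria3) for sex, against 3.20%, 10.2% and 7.41% of all genes. In that setting Grin2a stood at 0.05 and Grin1 at 0.01 for genotype label, Gria2 at 0.05 and Gria3 at 0.09 for sex, Grin2c at 0.03 for training and Grin3a at 0.05 for training by sex. With the correction alone, 0 subunits were called between trained KO and untrained WT or between the sexes, and values were 0.01 for Gria2 in the former, 0.08 for Gria2, 0.06 for Gria3, 0.01 for Grin2b and -0.00 for Grin1 by sex, and 0.01 for Grin2c and 0.02 for Gria4 by training. Training by sex gave 1 subunit without untrained male 3.

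With equal FPKM sums, 2 subunits were called between trained KO and untrained WT, Grin1 stood there at -0.03, and training gave -0.03 for Gria1 and -0.01 for Grin1, Gria2 and Gria3. That scaling split the genes called for training into 235 higher and 385 lower (440 and 273 as deposited), for trained KO against untrained WT into 1095 and 2112 (1626 and 1448), and for sex into 972 and 2600 (1857 and 1738). Quantile normalization gave Grin1 -0.05 in trained KO against untrained WT, and Gria1 -0.02 and Grin1 -0.01 for training. Array weights gave Grin2a 0.05 for genotype label, and Grin2c 0.02 and Gria3 -0.04 for training. With animal number as covariate 0 subunits were called between trained KO and untrained WT, with Grin1 at -0.19 and Grin3a at 0.09, and training gave Grin1 -0.21 and Gria3 -0.05. Males with numbers over 1000 gave Grin1 -0.25 and Gria4 0.02 for training. Trained males 1, 2 and 3 were left out together after their low Grin2a and Grin2b were seen. Without them, 0 subunits were called between trained KO and untrained WT, Grin2a was 0.11 there, and training gave Grin2c 0.06, Grin2a 0.06 and Grin2b 0.12. Without untrained male 3 and trained female 2, Gria3 was -0.01 for training.

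The replicate numbers share only a number: same-numbered libraries correlated between -0.29 and 0.36 for genotype label, -0.20 and 0.10 for training, and -0.27 and 0.01 for trained KO against untrained WT. The replicate block called 114, 29 and 1614 genes and 0 subunits in each, with Grin1 at -0.01 in the last and Gria1 at -0.01 and Gria2 at -0.02 for training.

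Leaving out 1 library at a time gave 0 to 2 subunits between trained KO and untrained WT. Ranges that crossed 0 were -0.15 to 0.04 for Gria1, -0.05 to 0.05 for Grin2a and -0.04 to 0.02 for Grin1 (genotype label), -0.10 to 0.03 for Gria1 and -0.01 to 0.04 for Grin1 (trained KO against untrained WT), and for training -0.11 to 0.16 for Gria1, -0.02 to 0.08 for Gria2, -0.02 to 0.05 for Gria3, -0.07 to 0.02 for Gria4 and -0.05 to 0.02 for Grin2c. Without untrained male 3, sex gave -0.02 for Gria1 and -0.01 for Grin3a, genotype label by sex -0.05 for Gria1, 0.05 for Grin1, -0.03 for Grin2d and -0.13 for Grin3a, and training by sex 0.01 for Gria2.

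Counts over all genes moved by over 1.5 times in 28 of 111 cases. For genotype label, 179 genes became 98 without the sex covariate, 297 with array weights, 340 without untrained male 3, 115 without WT female 3 and 402 with the GC correction as well as without untrained male 3. For training, 713 became 1238 with all 24 libraries in one fit, 422 without the sex covariate, 2020 with array weights, 1280 with the GC correction and without untrained male 3, 364 without trained males 1 to 3, 330 and 472 without untrained females 1 and 4, 332, 408 and 433 without trained female 1, 2 or the unnumbered one, and 0 with animal number as covariate or in males with numbers over 1000. For trained KO against untrained WT, 3074 became 22 with animal number as covariate. For sex, 3595 became 741 with the GC correction and 932 without untrained male 3 as well. For training by sex, 1 became 194 without untrained male 3, 13 with a pseudocount of 0.1, 4 with equal sums, 5 with the GC correction and 26 with both. Depth limits Grin2d most, with 79 to 490 reads per library.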
